A study of Mus musculus with 12 samples.

Results

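Mrc1, Mgl2, Cd209a, Cd163 and Flt3 were followed in RNAseq libraries of airway macrophages (AMs): 4 receptors of the alternatively activated macrophage and a growth factor receptor of dendritic cells. They are 5 of the 19161 genes in the count table. The table holds no gene names, and a name could be given to 1977 of its rows through a list of genes with low p-values in the comparison of genotypes. The members were therefore chosen by the readout described here, the difference between *Scnn1b*-Tg and WT libraries, and their genotype values are given as a description. The libraries came from 6-week-old female C57BL/6 mice. *Scnn1b*-Tg mice carry a transgene of the beta subunit of the epithelial sodium channel under the promoter of club cell secretory protein, which is active in airway epithelium, and serve as a model of muco-obstructive lung disease, while WT littermates lack the transgene. Cells were sorted from digested lungs as CD45, Siglec-F and CD11c positive, with 6 libraries per genotype. Batches 1, 2 and 3 hold 1 library of each genotype (Tg 1 and WT 1, Tg 2 and WT 2, Tg 3 and WT 3), and batch 4 holds 3 of each (Tg 4 to Tg 6 and WT 4 to WT 6).

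Macrophages exposed to interleukin-4 or interleukin-13 enter a state called alternative activation, in which surface lectins and scavenger receptors that take up glycans and debris are made. Resident AMs carry the mannose receptor without such a stimulus. Several of the other receptors are better known from interstitial macrophages and dendritic cells of the lung, and Flt3 is needed by dendritic cells and their precursors. Total counts ranged from 40259958 in Tg 5 to 121813289 in Tg 1, and all levels below are CPM, counts scaled to a common library size, here with TMM factors that correct for differences in composition between libraries. A count of 0 allows up to 3 counts, which is 0.0304 CPM in Tg 1 and 0.0622 CPM in Tg 5, as counting error only.

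Mrc1, the mannose receptor, was the member with the highest level in both genotypes, and Scnn1b-Tg libraries held slightly less of it than WT libraries. In the 6 WT libraries it ranged from 1858 to 2588 CPM with a median of 2201, and in the 6 Scnn1b-Tg libraries from 1697 to 2235 CPM with a median of 1974. The means were 2212 ± 373 (SD, n = 6) and 1971 ± 183 (SD, n = 6), and the groups overlapped. In batch 4 the 3 Scnn1b-Tg libraries (2235, 2076 and 2005 CPM) lay below the 3 WT libraries (2548, 2588 and 2521 CPM), a mean lower by 17.5%. In batches 1 and 3 the Scnn1b-Tg library was the higher of the pair, at 1873 against 1858 CPM and 1943 against 1878 CPM, and in batch 2 the lower, at 1697 against 1881 CPM. The log2 fold change with batch in the model was -0.15 (SE 0.06).

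Mgl2, a C-type lectin receptor of the galactose type, had 1 library far above the rest. WT libraries ranged from 0.250 to 4.42 CPM with a median of 0.598, and Scnn1b-Tg libraries from 0 to 47.4 CPM with a median of 2.46. The highest value of each genotype came from batch 1, with 47.4 CPM in Tg 1 and 4.42 CPM in WT 1. The next highest Scnn1b-Tg library, Tg 2, held 5.49 CPM, and Tg 4 held a count of 0, so the groups overlapped. Tg 1 contributed 80.3% of the summed CPM of the Scnn1b-Tg libraries. The mean was 9.83 ± 18.5 CPM (SD, n = 6) in Scnn1b-Tg and 1.19 ± 1.61 CPM (SD, n = 6) in WT, and without batch 1 it was 2.32 ± 2.13 and 0.542 ± 0.312 CPM. The Scnn1b-Tg library exceeded its WT partner 10.7-fold in batch 1, 5.68-fold in batch 2 and 1.55-fold in batch 3, and the means of batch 4 differed 5.05-fold. The log2 fold change was 2.29 (SE 0.81).

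Cd209a, a C-type lectin of the DC-SIGN family found on dendritic cells and some macrophages, also had the highest library of each genotype in batch 1. WT libraries ranged from 0 to 2.73 CPM with a median of 0.269, and Scnn1b-Tg libraries from 0.800 to 35.8 CPM with a median of 1.41. Tg 1 again held the highest value and 84.0% of the Scnn1b-Tg sum, 17.3 times the next library, and WT 1 held 72.7% of the WT sum. Each Scnn1b-Tg library lay above WT 2 to WT 6, while Tg 2 to Tg 6 lay below WT 1. Without batch 1, the mean was 1.36 ± 0.469 CPM (SD) in the Scnn1b-Tg libraries and 0.205 ± 0.224 CPM (SD) in the WT libraries. The ratio within batches was 13.1 in batch 1, 5.34 in batch 2, 2.32 in batch 3 and 24.2 in batch 4, where WT 5 and WT 6 held a count of 0 and WT 4 held 9 counts. With those 2 libraries set to the floor of 3 counts, the ratio in batch 4 was 14.0. The log2 fold change was 3.33 (SE 0.73).

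Cd163, the scavenger receptor for hemoglobin and haptoglobin complexes, was near the limit of detection in most libraries. It had a count of 0 in 3 Scnn1b-Tg and 4 WT libraries. The highest values were 2.55 CPM in Tg 1 and 2.11 CPM in Tg 2, followed by 0.693 CPM in WT 2, and the medians were 0.181 CPM in Scnn1b-Tg and 0 in WT. In batch 1 the ratio of Scnn1b-Tg to WT was 17.4, from 251 and 10 counts, and in batch 2 it was 3.04, from 185 and 66 counts. Both libraries of batch 3 held 0. In batch 4, with 23 counts in Tg 6 as the only signal in 6 libraries, the Scnn1b-Tg mean was at least 2.29-fold higher against the floor of 3 counts per library. The log2 fold change was 3.87 (SE 1.51) in edgeR, 3.73 in DESeq2 and 2.25 in limma-voom.

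Flt3, the receptor for Flt3 ligand, had the lowest level per length of the members. It had a count of 0 in 2 Scnn1b-Tg and 4 WT libraries, and reached 2.73 CPM in Tg 1 and 0.439 CPM in WT 1. Tg 1 held 66.3% of the Scnn1b-Tg sum. The direction was not the same in every batch: in batch 2 Tg 2 held 0 and WT 2 held 24 counts, so that Scnn1b-Tg was at least 7.37-fold lower, while it was 6.22-fold higher in batch 1. Against the floor, Scnn1b-Tg was at least 11.0-fold higher in batch 3 and at least 5.14-fold higher in batch 4. The log2 fold change was 4.38 (SE 2.11) in edgeR, 5.25 in DESeq2 and 2.37 in limma-voom, and the means differed 5.96-fold, so that its size depends on the method.

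**Figure D1:**
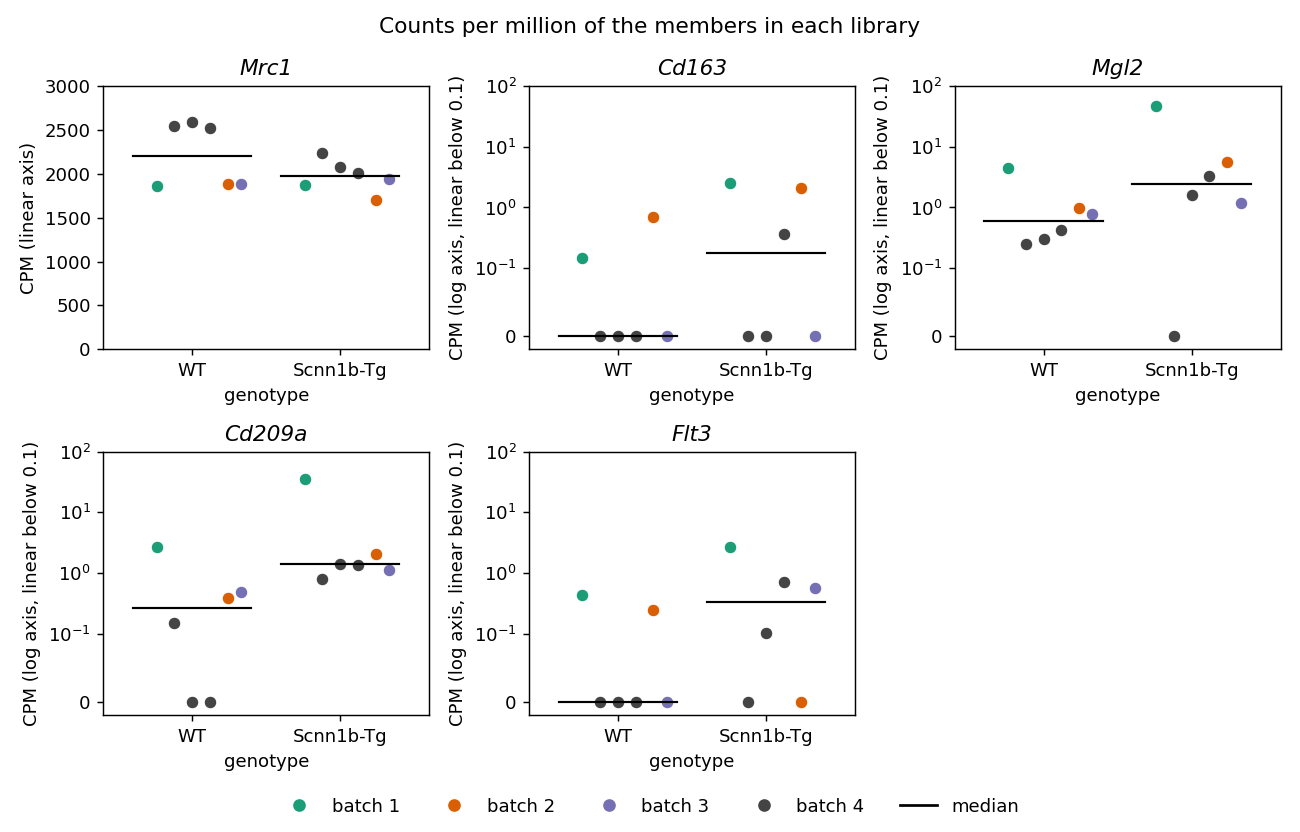
CPM of the 5 genes in each WT and Scnn1b-Tg library, with points coloured by batch and a line at the median. Mrc1 has a linear axis and the others a log axis that is linear below 0.1 CPM. Tg 1 stands at 47.4 CPM for Mgl2 and 35.8 CPM for Cd209a, and the 3 WT libraries of batch 4 lie at 0 for Cd163 and Flt3.

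Per kilobase of exon, Mrc1 stood far above the others, with 347 CPM per kilobase in WT and 309 in Scnn1b-Tg. In WT the others followed in the order Mgl2 (0.567), Cd209a (0.396), Cd163 (0.0256) and Flt3 (0.0186 CPM per kilobase). In Scnn1b-Tg the order was Mgl2 (4.69), Cd209a (4.49), Cd163 (0.153) and Flt3 (0.111 CPM per kilobase). Apart from Mrc1, neighbours in either order differed by less than the SD of the libraries for the higher of the 2.

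Of the 5 members, 5 passed the expression filter and 0 had an adjusted p under 0.1 with an absolute log2 fold change above 0.5 in edgeR's quasi-likelihood test, against 0.354% of the 16972 rows tested. At an unadjusted p under 0.05 the count was 4 of 5, against 8.64% of rows. DESeq2 called 2 (Mgl2 and Cd209a) and 248 of 19161 rows, and limma-voom called 1 (Cd209a) and 97 of 16972 rows. Because the names were selected on this contrast, these counts are not read as a result. The adjusted p-values of edgeR ranged from 0.139 for Cd209a to 0.614 for Flt3. Of the 12 fits that left out 1 library, 1 called Mgl2, that without Tg 4 (adjusted p = 0.0689, log2 fold change 2.55). Tg 4 is the Scnn1b-Tg library with a count of 0 for Mgl2, so this fit depends on the outcome, and the other 11 gave an adjusted p of 0.468 to 0.695.

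The genotypes overlapped for each member: 0 of 5 had libraries without overlap, against 0.259% of all rows tested. Within batch 4 the number was 2 of 5 (Cd209a, higher in Scnn1b-Tg, and Mrc1, lower), against 15.0% of rows. Mgl2 and Cd209a were higher in Scnn1b-Tg in each of the 4 batches, 2 of 5 members, against 8.60% of rows. Among the rows with a gene name, which share the selection of the members, that percentage was 36.1%.

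Whether the genotype difference itself depended on the batch was tested with an added coefficient, a measure that did not choose the members. A difference between batch 4 and batches 1 to 3 was called for 0 of 5 members, against 0.112% of rows, which does not show that the effects were equal. The estimates, batch 4 minus batches 1 to 3, were a log2 difference of 2.03 for Cd209a (unadjusted p = 0.162), 3.39 for Cd163 (0.318), 5.07 for Flt3 (0.269) and 0.10 for Mgl2 (0.952). Fitted apart, the log2 fold change of Cd209a was 2.49 in batches 1 to 3 and 4.52 in batch 4. The lowest adjusted p was 0.699 in edgeR, for Mrc1, whose difference of log2 fold changes was -0.25 and whose unadjusted p was the 1 of 5 under 0.05, beside 1130 of 16972 rows. In limma-voom the count was also 0 of 5, with 1 of 5 at an unadjusted p under 0.05, beside 1321 of 16972 rows. Batch itself had an effect on 2 of the 5 genes in edgeR, against 49.8% of rows. In limma-voom it had an effect on 3 of the 5, against 9539 of 16972 rows, so that the members were not set apart by batch. Relative to the mean of batches 1 to 3, batch 4 was lower for Mgl2 by a log2 difference of -2.21 (SE 0.79, adjusted p = 0.0370 in edgeR) and for Cd209a by -2.76 (SE 0.70, adjusted p = 0.00761). That mean includes the high batch 1. In Scnn1b-Tg, Mgl2 held 47.4 CPM in batch 1, 1.19 in batch 3 and a mean of 1.64 in batch 4. For Cd209a these values were 35.8, 1.13 and 1.21 CPM. In WT, batch 4 lay below batch 3, at 0.325 against 0.768 CPM for Mgl2 and 0.0499 against 0.489 CPM for Cd209a. Mrc1 was higher in batch 4 by 0.32 (SE 0.06, adjusted p = 0.00142), which is within the threshold on fold change. Batch 4 appears to have been made with another library kit than batches 1 to 3, so batch and kit cannot be told apart in these differences. Within batch 4 the flow cells named in the labels differ between the genotypes, so flow cell and genotype cannot be told apart there.

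Tg 1 was the highest Scnn1b-Tg library for 4 of the 5 members, the exception being Mrc1, against 21.1% of all rows tested and 34.3% of the named rows with a log2 fold change above 0. WT 1 was the highest WT library for 3 of 5 (Mgl2, Cd209a and Flt3), against 21.7% of rows. The excess of Tg 1 over the next Scnn1b-Tg library was reached or passed by 0.395% of rows for Cd209a, 0.583% for Mgl2 and 1.43% for Flt3, but by 10.6% for Cd163. In the group means, most of the signal of the lectins Mgl2 and Cd209a came from 1 library, and most of that of Cd163 from Tg 1 and Tg 2. A model with batch as a block weights the libraries differently: without batch 1 the log2 fold change was 2.05 for Mgl2 and 3.40 for Cd209a, against 2.29 and 3.33 with it. The corresponding adjusted p-values in edgeR were 0.677 and 0.517. Over the 12 fits that each left out 1 library, the log2 fold change ran from 1.83 to 2.61 for Mgl2, 3.02 to 3.79 for Cd209a, 2.34 to 4.81 for Cd163 and 3.17 to 5.65 for Flt3, and from -0.20 to -0.12 for Mrc1. Over all alternatives the ranges were wider, 1.83 to 3.04 for Mgl2, 2.49 to 4.52 for Cd209a, 2.08 to 4.81 for Cd163, 1.98 to 5.65 for Flt3 and -0.28 to -0.03 for Mrc1. Of the fits that left out 1 library, that without Tg 6 gave the lowest values for Mgl2, Cd163 and Flt3. Over all alternatives the lowest value for Cd163 came from limma-voom with library quality weights, and that for Flt3 from batches 1 to 3 only. In batches 1 to 3, leaving out 1 library also leaves its partner without weight in the comparison.

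**Figure D2:**
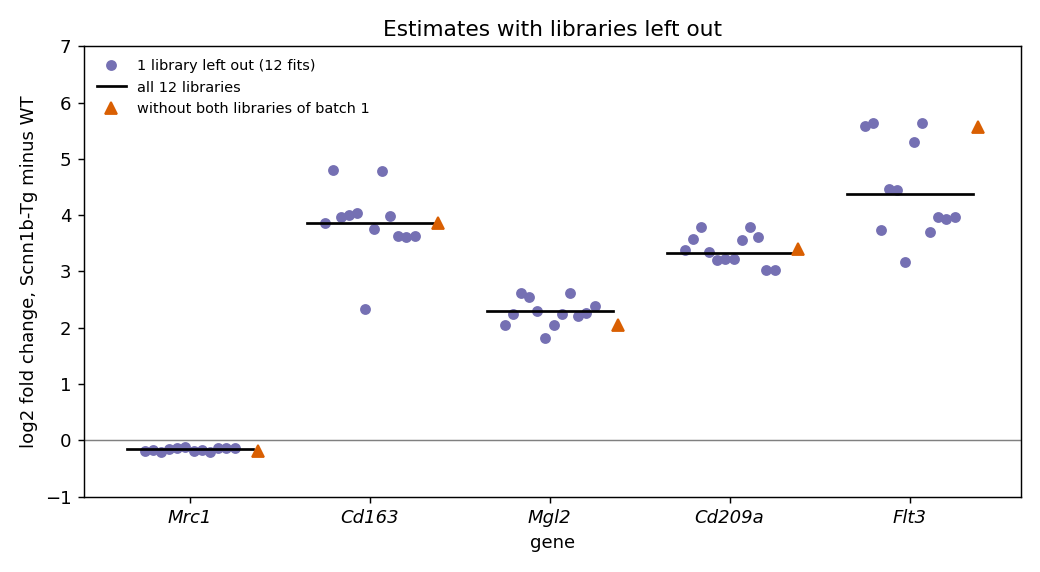
Log2 fold changes of the 5 genes, Scnn1b-Tg minus WT, with all 12 libraries (line), with each library left out in turn (points) and without both libraries of batch 1 (triangles). The points stay on the side of 0 of the line for each gene, and those of Cd163 span 2.34 to 4.81.

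Markers of other cells were read beside these values, as far as their genes had a name. Of 22 dendritic cell markers other than the members, 5 had a name. Their sum was highest in Tg 1 at 59.5 CPM, lay between 12.6 and 27.2 CPM in Tg 2 to Tg 6, and was 26.3 CPM in WT 1 and 9.82 to 18.4 CPM in the other WT libraries. Ccl17, a chemokine of dendritic cells and alternatively activated macrophages and the most abundant of them per length, rose in Scnn1b-Tg with a log2 fold change of 2.46 (SE 0.43, adjusted p = 0.0619 in edgeR). It held 23.5 CPM in Tg 1 and 2.96 to 6.43 CPM in Tg 2 to Tg 6, above the WT range of 0.245 to 2.18 CPM. Ciita, the activator of MHC class II genes, rose by a log2 fold change of 1.22 (SE 0.22, adjusted p = 0.0702), also without overlap. The other 3, named after their values were seen, were not called by edgeR, and DESeq2 called Kmo. Kmo held 0.989 CPM on average in Scnn1b-Tg and 0.229 CPM in WT, with a count of 0 in 3 WT libraries, and Itgb7 held 4.34 and 2.07 CPM. Haao went the other way, with a log2 fold change of -0.88 (SE 0.39), 5.28 ± 3.44 CPM (SD, n = 6) in Scnn1b-Tg against 8.81 ± 3.98 CPM (SD, n = 6) in WT, and 9.35 CPM in Tg 1 against 15.4 CPM in WT 1. The sort was on CD45, Siglec-F and CD11c, and by the paper's check it was not wholly pure. In the paper's flow cytometry, dendritic cells were defined as positive for CD11c and negative for Siglec-F. In these sorted cells, more cells of a type and more RNA per cell cannot be told apart, and the part of such cells in the values of Tg 1 was not tested.

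Of 14 interstitial macrophage markers, 3 had a name, and their sum was 210 CPM in Tg 1, 121 CPM in WT 1 and 266 to 331 CPM in batch 4, nearly all of it Csf1r. The other 2, C1qb and Timd4, named after their values were seen, had other highest libraries than the sum: C1qb held 14.2 CPM in WT 2, 12.9 CPM in Tg 2 and 4.48 CPM in Tg 1, and Timd4 held 2.37, 2.20 and 0.994 CPM in the same libraries. Of 13 monocyte markers, 2 had a name (Vcan and Ace), with a sum of 47.0 CPM in Tg 1, 26.3 CPM in WT 1 and 39.4 to 50.5 CPM in batch 4, nearly all of it Ace. Vcan was lower in Scnn1b-Tg, with a log2 fold change of -1.61 (SE 0.50, adjusted p = 0.392 in edgeR) and 0.0507 CPM in Tg 1 against 0.453 CPM in WT 1. Of 12 lung epithelial markers, 3 had a name, and their sum was highest in Tg 1 (235 CPM) and Tg 2 (198 CPM), against 88.6 to 137 CPM in the other libraries. Most of it was Cdh1, at 162 CPM in Tg 1 and 86.9 to 142 CPM in the others, which is also counted with the alternative activation genes below. Foxj1 held 0.426 CPM in Tg 1, the lowest of the Scnn1b-Tg libraries, and 2.30 CPM in Tg 2. The rest was Scnn1b, the gene that the transgene carries, at 72.0 CPM in Tg 1, 54.1 CPM in Tg 2 and 1.15 to 4.35 CPM in Tg 3 to Tg 6. In WT 1 and WT 2 it reached 11.6 and 12.8 CPM. Tg 1, Tg 2 and WT 2 were the 3 highest libraries for Cd163, as for C1qb and Timd4, and Tg 1 and Tg 2 were also the highest for the epithelial sum, although the cells were sorted for CD45. The part of other cells in the values of Cd163 was not tested. The sums of neutrophil markers (2 of 10 named), B cell markers (2 of 8) and T and NK cell markers (3 of 12) in Tg 1 were 43.5, 14.4 and 697 CPM, against 46.3, 9.72 and 695 CPM in WT 1, and 0 of 5 eosinophil and 0 of 6 red blood cell markers had a name. Tg 2, at 25.3 CPM, and Tg 1 were the highest for the B cell sum, as for the epithelial sum, against 1.10 to 9.72 CPM in the other libraries. Most of the T and NK cell sum was Cd2. Of the 15 named genes in these lists edgeR called 0, with 8 at an unadjusted p under 0.05. DESeq2 called 4 of the 15 (Cxcr2, Scnn1b, Timd4 and Vcan) and limma-voom 1 (Scnn1b).

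Genes that mark resident AMs were abundant in each library. Of 20, 8 had a name, led by Chil3, a chitinase-like protein, at 25042 ± 3960 CPM (SD, n = 6) in WT and 32183 ± 13918 CPM (SD, n = 6) in Scnn1b-Tg, where Tg 1 reached 59322 CPM. Siglecf, a gene of the sort, was at 440 ± 134 CPM in WT and 352 ± 98.1 CPM in Scnn1b-Tg, with a log2 fold change of -0.31 (SE 0.06, adjusted p = 0.0895 in edgeR), lower in Scnn1b-Tg with an adjusted p under 0.1 but within the threshold on fold change. Ptprc, which encodes CD45, was at 1000 ± 155 CPM (SD, n = 6) in WT and 840 ± 242 CPM (SD, n = 6) in Scnn1b-Tg, with a log2 fold change of -0.30 (SE 0.11, adjusted p = 0.476 in edgeR) and its lowest value, 389 CPM, in Tg 1. Itgax had no name in the table and was not analysed here. Krt79 fell by 0.65 on the log2 scale (SE 0.07, adjusted p = 0.00886 in edgeR), and its groups did not overlap. Of the 8 named markers, which include Mrc1, 3 had a higher estimate in Scnn1b-Tg, and the median log2 fold change was -0.17. Cidec had a log2 fold change of -0.36 (adjusted p = 0.0360 in edgeR), within the threshold on fold change. Fabp4 went the other way, at 0.39 (adjusted p = 0.169 in edgeR). Both were named after their values were seen, and edgeR called Krt79 alone among the 8.

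Other genes of the members' families and pathways were taken from lists, of which again only the named genes could be read, and these carry the same selection by p-value. Among other alternative activation genes, 9 of 30 had a name and 3 were called higher by edgeR, Ccl17, Mmp12 and Trem2, with a median log2 fold change of 0.51 over the 9, beside 0.01 over all rows. Mmp12, macrophage elastase, rose by 1.82 (SE 0.23, adjusted p = 0.0119), from 8.53 ± 2.77 to 32.4 ± 16.4 CPM (SD, n = 6), and Trem2, a lipid receptor, by 0.51 (SE 0.09, adjusted p = 0.0595). DESeq2 called these 3 and Ptgs1, and limma-voom called 2 (Ccl17 and Mmp12). Of 31 other C-type lectin receptors, 6 had a name, led per length by Clec4b1, with a median log2 fold change of -0.31. edgeR called 0 of these 6, with 5 at an unadjusted p under 0.05, DESeq2 called 2 (Clec4d and Cd93) and limma-voom called 1 (Clec4d). Of 20 other scavenger receptors, 5 had a name, and 1, Cd68, was called higher by edgeR (log2 fold change 0.52, SE 0.08, adjusted p = 0.0400). Colec12, a scavenger receptor with a collagen domain, had groups without overlap at a log2 fold change of 0.58 and was not called by edgeR (adjusted p = 0.227). DESeq2 called 3 of the 5 (Cd68, Colec12 and Timd4) and limma-voom 1 (Cd68). Of 14 other hematopoietic growth factor receptors and ligands, 4 had a name (Csf1r, Csf1, Csf3r and Epor). edgeR called 0 of them, with 3 at an unadjusted p under 0.05, DESeq2 called 1 (Epor) and limma-voom 0.

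Across the 12 libraries, after the batch mean was subtracted from log2 CPM, the members other than Mrc1 varied in the same direction, as the choice of genes by genotype would make them. Pearson's r was 0.71 between Cd163 and Mgl2, 0.60 between Cd163 and Cd209a, and 0.40 between Mgl2 and Cd209a, and Mrc1 was inversely related to Cd209a at -0.82. Without batch 1, r was 0.65, 0.50 and 0.29 for the first 3 pairs and -0.89 for Mrc1 and Cd209a. The named rows most like each member were Ube2w (0.95), Cltc and Rlim for Mrc1, Ceacam1 (0.94), Fam49a and Ksr2 for Mgl2, and Gm7984 (0.97), Myrf and Lyzl4 for Cd209a. For Cd163 they were Rtn1 (0.98), Maml2 and Gcsam, and for Flt3 Gm11605 (0.87), A430078G23Rik and Sestd1. These coefficients share libraries, counts near 0 and the selection of names, and are a description.

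In the GENCODE M21 annotation (GRCm38) Mrc1 lies at chr2:14229392-14332057 on the plus strand with 29 merged exons, and the microRNA gene Mir511 lies within it. Mgl2 is at chr11:70130329-70137550 (plus strand, 10 merged exons), Cd209a at chr8:3743397-3748984 (minus strand, 6), Cd163 at chr6:124304656-124330527 (plus strand, 16) and Flt3 at chr5:147330741-147400489 (minus strand, 25). The span of Flt3 overlaps that of Gm26597, an antisense gene, and the counts were made without strand. Their transcripts shared 0 words of 75 bases on either strand. Of the 75-base words in Mgl2 transcripts, 6.56% also occur in Clec10a, so reads from there could be counted for either gene, and for the other members 0 such words were shared with another gene. This word length is the read length of the single-end libraries. The paired-end reads were longer, so the share open to either gene could be smaller there.

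Promoter windows of RefSeq (GRCm38.p6) were listed for Mrc1, Cd163, Mgl2, Cd209a and Flt3. The 250 bases before the RefSeq start of Mgl2 (chr11:70130107-70130356, plus strand) and Cd209a (chr8:3748985-3749234, minus strand), the lectins with the largest excess in Tg 1, are shown 5′ to 3′, with matches to the words searched in capitals.
Mgl2: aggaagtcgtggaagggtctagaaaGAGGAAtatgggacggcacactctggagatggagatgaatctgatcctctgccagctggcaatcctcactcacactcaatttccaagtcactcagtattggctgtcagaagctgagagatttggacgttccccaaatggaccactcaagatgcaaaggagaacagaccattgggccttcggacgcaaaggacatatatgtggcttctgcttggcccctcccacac
Cd209a: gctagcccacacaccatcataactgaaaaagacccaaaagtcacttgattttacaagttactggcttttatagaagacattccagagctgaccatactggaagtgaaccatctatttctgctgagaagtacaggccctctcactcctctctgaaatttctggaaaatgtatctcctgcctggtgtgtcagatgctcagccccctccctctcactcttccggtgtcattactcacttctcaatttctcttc
The words were TTC and GAA with 4 free bases between them (STAT6), TGA and TCA with 1 free base between them (AP-1), and GAGGAA (PU.1), on both strands. GAGGAA occurred 1 time in the window of Mgl2 and 0 times in that of Cd209a, and 23.3% of the 32851 windows of this length hold it. In the windows listed but not shown, it occurred 3 times for Mrc1 and 0 times for Cd163 and Flt3. No member's window held the STAT6 word, found in 5.85% of windows, or the AP-1 word, found in 6.75%.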

How the data were processed

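RNAseq counts from sorted AMs of 6 *Scnn1b*-Tg and 6 WT mice were used. The authors aligned reads with HISAT2 to mm10 without strand and derived the deposited counts from StringTie coverage, as whole numbers that are not normalized. Paired-end libraries were made with the SMART-Seq v4 kit and single-end libraries with a NEBNext directional kit, in different facilities and on different sequencers. The labels do not name the kit of each library, but the flow cells named for batch 4 have the form of NextSeq flow cells, the sequencer of the single-end libraries. By this, kit coincides with batch 4 against batches 1 to 3: batch in the model takes it up, and differences between these batches cannot be told from differences between kits. Rows were named by pairing the study's mean normalized count per gene, used for identity only, with a weighted sum of the 12 counts: 1999 genes matched within a relative difference of 1e-09, and weights fitted without them placed 999 of 999 left-out genes identically. Members and lists were chosen with earlier results of these data known, and some genes of the planned lists and members are not reported here.

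edgeR 4.0.16 in R 4.3.3 (TMM, its expression filter, quasi-likelihood test) was fitted with genotype and batch (4 levels) to 16972 rows, with Benjamini-Hochberg adjustment over all of them. Genes were called when the adjusted p was under 0.1 and the log2 fold change beyond 0.5 in either direction. SEs were computed from the fold change and F. Named genes were the members, list genes called, most abundant or without overlap, the 3 rows most like each member, and genes of the sort. DESeq2 1.42.0, limma 3.58.1, other filters, blocks and left-out libraries were the alternatives. The procedures were tested on simulated data. Batch pairs the libraries by the labels: deviations from the genotype mean of batches 1 to 3 correlated at 0.211, 0.276 and 0.482 between partners and at -0.331 to 0.124 between libraries of different batches. Deviations from a mean of so few libraries offset each other, which by itself lowers the values between different batches. From the genotype mean of all 6 libraries, partners correlated at 0.599, 0.622 and 0.453. Libraries of different batches then correlated at 0.138 to 0.556, so the ranges overlapped. In batch 4, libraries of the same number correlated at -0.0644, 0.00143 and -0.00582. No libraries of one genotype agreed within sampling noise (lowest chi-square per row 58.4 over 30 pairs).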

Additional observations from a re-analysis of the deposited data

Results flagged for a closer look

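In 6 of the 10 groups of libraries, each a member in a genotype, the highest library lay farther from the next than Dixon's 95% limit allows, while chance alone marks about 1 in 20 groups. Over all rows tested, the same rule marks the highest library in 11.0% of groups. The groups of the members share libraries, so the marks do not count as independent. Among the Scnn1b-Tg libraries, Tg 1 stood apart for Mgl2 (47.4 CPM), Cd209a (35.8 CPM) and Flt3 (2.73 CPM). Among the WT libraries, its batch partner WT 1 stood apart for Mgl2 (4.42 CPM) and Cd209a (2.73 CPM), and WT 2 for Cd163 (0.693 CPM). Cd163 held a count of 0 in 4 of the WT libraries, so a few counts place a library far from the others there. Why batch 1 was high in both genotypes was not tested.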

How the results depend on the processing

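With all libraries, edgeR called 60 genes, 50 higher and 10 lower in Scnn1b-Tg, and 0 of the 5 members. The count of genes became 248 with DESeq2, 97 with limma-voom, 28 with a replicate block of 6 pairs, 38 at an adjusted p under 0.05 and 23 without both libraries of batch 1. It was 0 with no replicate block (270 genes at an unadjusted p under 0.05) and 0 in batches 1 to 3 alone (1009 genes). In batch 4 alone it was 52 of 14015 rows, and flow cell and genotype cannot be told apart there. With 1 library left out it ranged from 22 to 53, and moved by over 1.5 times without Tg 1, Tg 2, WT 1, WT 2, WT 4, WT 5 or WT 6. Members called were 2 with DESeq2 (adjusted p 0.0725 for Mgl2 and 2.01e-05 for Cd209a), 1 with limma-voom (Cd209a, 0.0177), 1 with library quality weights in limma-voom (Cd209a, 0.0433), and 0 to 1 with 1 library left out. The replicate block of 6 pairs and the fit with no replicate block each called 0 members, as with batch as the block. The cause of these differences was not tested. No member changed sign in the alternatives that gave it a value, 21 to 24 per gene. The range of adjusted p over them was 0.0689 to 1 for Mgl2 and 2.01e-05 to 1 for Cd209a. With at least 1 CPM required in 6 libraries, 2 members were tested, and in batch 4 alone, as with no replicate block, Cd163 and Flt3 did not pass the expression filter and gave no fold change. Counts of genes that differed by batch, or in their genotype effect between batches, moved by less than 1.5 times. Cd163 and Flt3 held a count of 0 in 7 and 6 of the 12 libraries. Names could be given to 1977 of 19161 genes, so most genes of each list were not analysed here.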
